A study of Homo sapiens with 2 samples.

Results

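The ribosome of the mitochondrial matrix is assembled from imported proteins and RNAs of the mitochondrial genome. Mitochondrial ribosomal protein genes are the nuclear genes of these proteins, which are made in the cytosol. They were chosen by symbol alone: every row whose gene identifier maps to a protein-coding symbol made of MRPL or MRPS, a number and at most 1 letter from A to C, with MRPL16 left out. This gave 77 genes among the 62702 rows, 29 with MRPS symbols (small subunit) and 48 with MRPL symbols (large subunit). RNA was measured in 2 libraries of K562, an erythroid-like line established from human chronic myeloid leukemia, labelled WT with the genotype E50_dCas9-KRAB. Both therefore carry a nuclease-dead Cas9 joined to a repressor domain, which lowers transcription from the promoter that a guide RNA names; what E50 stands for is not explained in the labels. One library received a control guide (sgRNA_Control) and the other a guide against SMC1A (sgRNA_SMC1A), a subunit of the cohesin ring. In both, guides came by lentivirus with a blue fluorescent marker, puromycin at 1 µg/ml was given from day 2 to day 6, and sorted cells bright for the marker were used. Each guide had 1 library, so every difference described here is between those libraries, has no replicate and carries no p-value.

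The mitochondrial ribosome translates the few messenger RNAs of the mitochondrial genome, all of which code for subunits of the respiratory chain and of ATP synthase. Its small subunit binds the messenger RNA and reads codons, and its large subunit forms peptide bonds and releases the chain through a tunnel near the inner membrane. Many of its proteins have counterparts in bacterial ribosomes, and others were added in mitochondria. Because protein genes lie in the nucleus and ribosomal RNA genes in the mitochondrion, building the particle needs products of both genomes.

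The library with the control guide held 18349209 counts and the one with the SMC1A guide 16864207. SMC1A itself had 8077 counts under the control guide and 288 under its own, a log2 ratio of -4.81 (-4.99 to -4.65). Ratios are of CPM, a gene's counts relative to its library's size, on libraries scaled with TMM factors, SMC1A guide over control guide, and are given on the log2 scale with an exact 95% interval that covers counting error only. Genes with at least 100 counts over both libraries, 11321 in number, form the background, with a median ratio of -0.05. All 77 members passed that filter, with 428 to 6842 counts each. The erythroid markers HBG1, HBG2, HBE1, GATA1 and TAL1 were present in both libraries, at 112 CPM or more. Of the 15 markers of T cells, B cells, monocytes, fibroblasts and epithelial cells, MS4A1 and KRT5 had no count in either library. T cell markers summed to 18.2 and 27.0 CPM, B cell markers to 0.969 and 0.567, monocyte markers to 18.4 and 24.7, fibroblast markers to 7.75 and 15.9 and epithelial markers to 169.8 and 114.5; the part of these cells' genes in the results was not tested. In bulk RNA, fewer cells of a type and less RNA per cell cannot be told apart.

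Promoter sequence is shown first, since these genes are spread across the genome and members at both ends of the range of ratios can be read side by side. RefSeq windows (GRCh38.p14), running from 250 bases before to 50 bases after each gene's start, were matched by symbol for 68 of the 77 genes. The stretches below hold the 150 bases before the start, 5′ to 3′ on the strand of the gene. They belong to the 3 lowest and the 3 highest members, and to MRPL22, the member with most kinds of motif, among 19 genes with 1 window and at most 30 bases of the stretch in any annotated exon. Capitals mark matches to any of 4 short motifs, searched on both strands: CACGTG (the E-box bound by MYC and MAX), CCGGAAG (bound by ETS factors, among them GABP), TGCGCA (the core of the site of NRF1) and AAGATGG (the core of the site of YY1). CACGTG and TGCGCA read the same on both strands.
MRPS23, ratio -0.71, chr17:57850045-57850194, minus strand: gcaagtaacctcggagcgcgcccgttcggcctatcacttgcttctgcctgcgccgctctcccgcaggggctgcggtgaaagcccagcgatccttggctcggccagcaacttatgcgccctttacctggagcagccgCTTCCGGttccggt
MRPL3, ratio -0.70, chr3:131502972-131503121, minus strand: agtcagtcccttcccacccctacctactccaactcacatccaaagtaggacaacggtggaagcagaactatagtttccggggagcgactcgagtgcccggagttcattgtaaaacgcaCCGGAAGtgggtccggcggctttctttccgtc
MRPS30, ratio -0.68, chr5:44808797-44808946, plus strand: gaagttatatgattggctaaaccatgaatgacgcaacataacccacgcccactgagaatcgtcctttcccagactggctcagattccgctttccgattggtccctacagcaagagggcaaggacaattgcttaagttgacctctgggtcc
MRPL11, ratio -0.01, chr11:66438849-66438998, minus strand: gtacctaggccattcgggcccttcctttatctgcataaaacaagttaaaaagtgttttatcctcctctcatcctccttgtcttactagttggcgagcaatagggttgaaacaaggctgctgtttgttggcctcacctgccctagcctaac
MRPL33, ratio 0.09, chr2:27771569-27771718, plus strand: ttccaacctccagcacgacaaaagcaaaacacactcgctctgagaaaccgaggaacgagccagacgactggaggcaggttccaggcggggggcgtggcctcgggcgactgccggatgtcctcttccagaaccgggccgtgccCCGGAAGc
MRPS14, ratio 0.21, chr1:175023426-175023575, minus strand: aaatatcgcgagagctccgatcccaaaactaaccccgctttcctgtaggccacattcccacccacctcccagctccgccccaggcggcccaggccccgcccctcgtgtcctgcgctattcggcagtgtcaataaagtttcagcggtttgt
MRPL22, ratio -0.14, chr5:154940923-154941072, plus strand: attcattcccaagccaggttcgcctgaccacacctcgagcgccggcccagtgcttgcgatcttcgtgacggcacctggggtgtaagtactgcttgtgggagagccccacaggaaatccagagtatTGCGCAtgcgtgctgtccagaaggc

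In these stretches the ETS motif began 14 bases before the start in MRPS23, 32 before it in MRPL3 and 8 before it in MRPL33. MRPS23 and MRPL3 lie at the low end of the ratios and MRPL33 at the high end. The stretches of MRPS30, MRPL11 and MRPS14 held none of the 4 motifs. Past the printed stretch, the YY1 core began at base 14 after the start in MRPS30 and at base 25 in MRPL11. MRPL22 had the NRF1 core 25 bases before its start. Outside its stretch the window held the E-box 176 bases before the start and the YY1 core at base 36 after it. A match is a run of letters only, and no binding was measured.

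Over all windows, the ETS motif was in 29 of the 68 genes (42.6%), against 25.3% of the 8844 background genes with a window and 10.3% of all 35116 windows. The YY1 core was in 24 genes (35.3%), against 10.4% and 5.84%. The NRF1 core was in 15 genes (22.1%), against 17.4% and 8.24%, and the E-box in 9 (13.2%), against 13.3% and 7.26%. The last share given for each motif is by window and not by gene. Of the members' 84 windows, 38.1% held the ETS motif, 32.1% the YY1 core, 20.2% the NRF1 core and 10.7% the E-box. None of the 68 genes had all 4 motifs, 19 had at least 2 and 15 had none. Matches were counted window by window, so a site in overlapping windows of 1 gene, as in MRPS22, was counted more than once. Of 29 matches to the YY1 core, 17 (58.6%) began after the gene's start, against 34.7% of the matches in all windows. Of 44 ETS matches, 25 (56.8%) began in the last 60 bases before the start, against 39.2%. The YY1 core contains ATG, the letters of a start codon, and how many of its matches are start codons was not examined. Within the members, median log2 ratios were -0.35 with the ETS motif and -0.44 without, -0.33 with the YY1 core and -0.42 without, -0.41 with the NRF1 core and -0.36 without, and -0.36 with the E-box and -0.40 without. Whether the ratio differs with any motif was not tested.

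Messages for mitochondrial ribosomal proteins were lower as a group in the library with the SMC1A guide, in both subunits. The 29 small subunit genes had a median log2 ratio of -0.36, which is 77.8% of the control level, and the 48 large subunit genes a median of -0.35, or 78.6%. The ratio was below 0 for 28 small subunit genes and 44 large subunit genes, together 72 of 77 (93.5%), where 54.3% of the background genes were below 0. The whole counting interval lay below 0 for 63 members, against 38.7% of the background, and above 0 for 3 members, against 29.4%. The remaining 11 intervals held 0. The differences were small: 13 members (16.9%) were at least 1.5-fold lower, 6 in the small and 7 in the large subunit, against 9.06% of the background, and 0 were at least 1.5-fold higher, against 12.2%. At 2-fold, 0 members were lower or higher, where 2.32% of the background was lower and 5.11% higher.

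**Figure D1:**
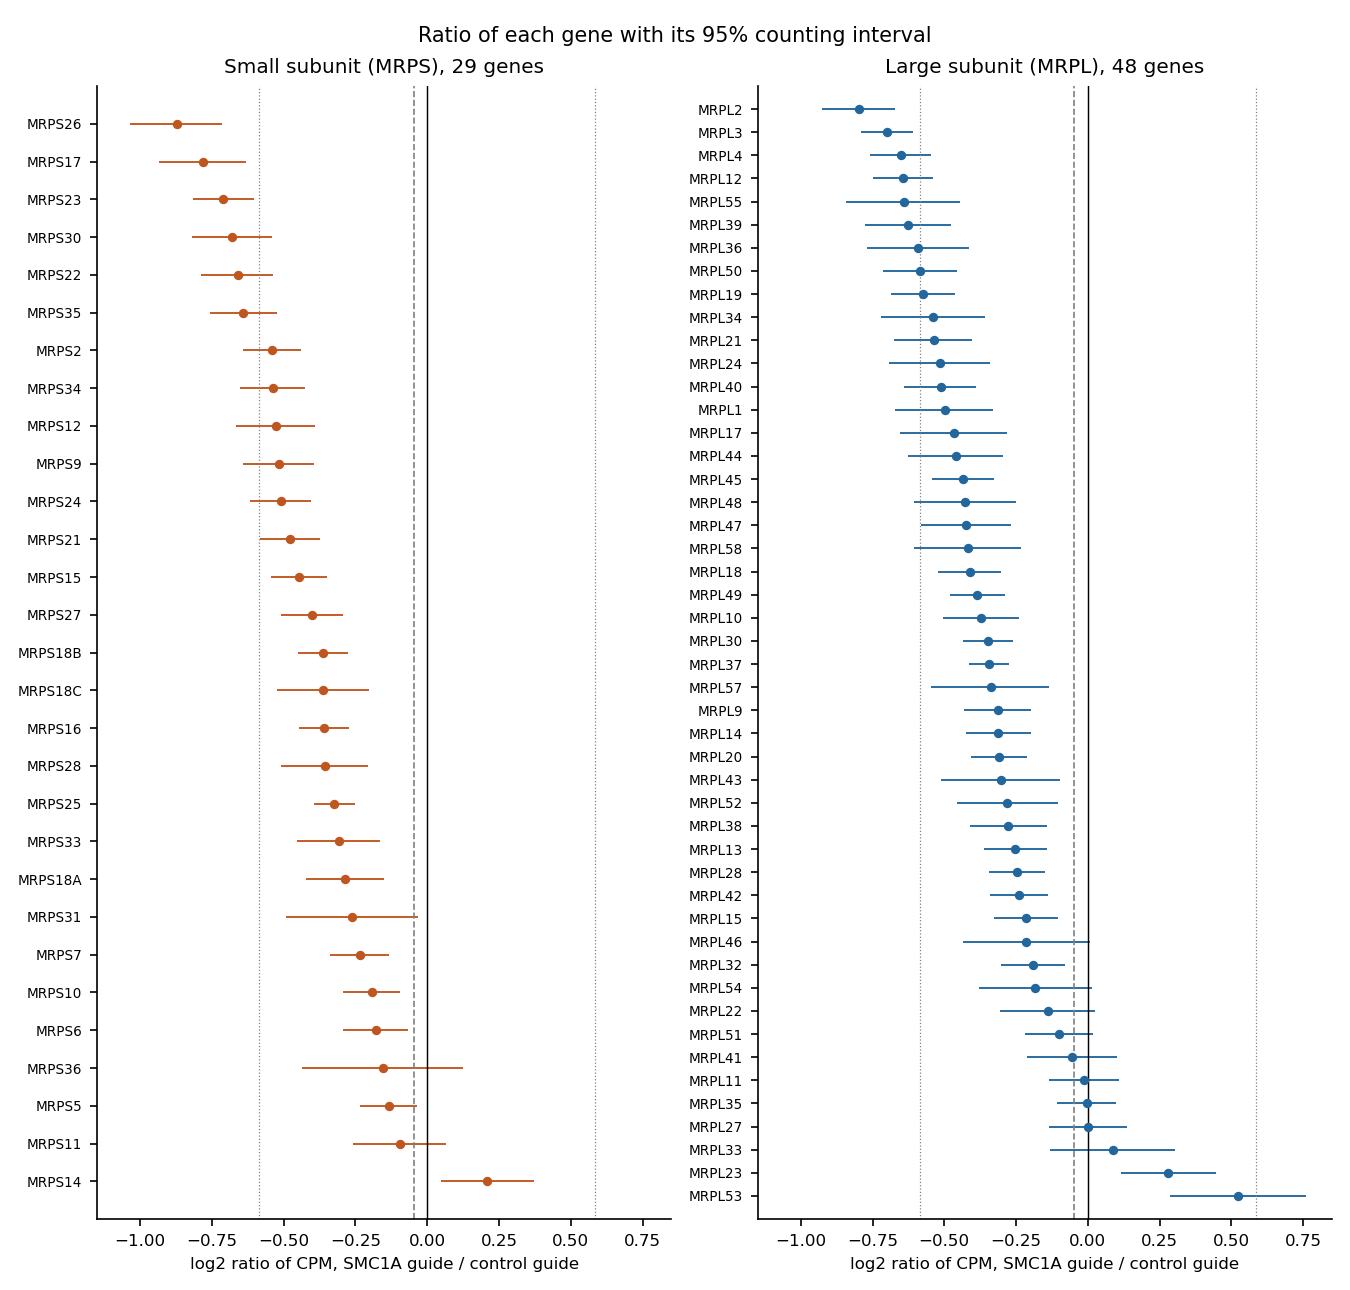
Log2 ratio of CPM (SMC1A guide over control guide, horizontal axis) of the 29 small subunit genes (left, orange) and the 48 large subunit genes (right, blue), ordered by ratio. Points are ratios and bars exact 95% counting intervals; the solid line is 0, the dashed line the background median of -0.05 and the dotted lines 1.5-fold in either direction. Most points lie between the lower 1.5-fold line and 0, and MRPS14, MRPL23 and MRPL53 have whole intervals to the right of 0.

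The members were also closer to each other than genes in general. Their ratios had a standard deviation of 0.25 and quartiles of -0.53 and -0.23, while those of the background had a standard deviation of 0.64 and quartiles of -0.32 and 0.27. The spread among members was wider than counting allows, since the median counting error of a member's ratio was 0.06. Ratios were lower in more highly counted genes: with the background cut into 5 equal groups by counts, their medians ran 0.19, 0.02, -0.04, -0.10 and -0.19. The members in these groups numbered 0, 9, 21, 38 and 9, and the medians of the 4 groups with members were -0.21, -0.42, -0.41 and -0.36. The 7837 background genes with summed counts in the same range, 428 to 6842, had a median of -0.07 and a standard deviation of 0.51, with 57.1% of ratios below 0 and 8.27% at least 1.5-fold lower. With the trend of ratio on expression taken out, the medians were -0.30 for the small and -0.27 for the large subunit, and 6 members (7.79%) were at least 1.5-fold lower, against 8.45% of the background. Scaling by library totals alone, which shifts the median of all genes by 0.13, gave medians of -0.23 and -0.22, with 3 members (3.90%) at least 1.5-fold lower and 1 (1.30%) higher, against 5.65% and 16.5% of the background. The share of members at least 1.5-fold lower was thus above that of the background in the scaling used here and below it in both of these alternatives. The share of members with a ratio below 0 was 90.9% against 50.5% of the background with the trend taken out, and 87.0% against 42.1% by library totals.

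**Figure D2:**
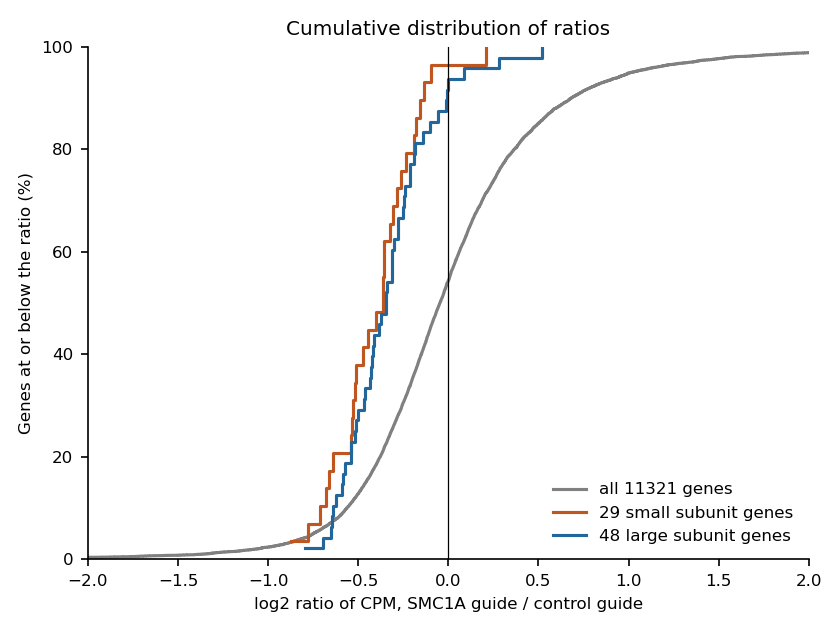
Share of genes (vertical axis, percent) at or below each log2 ratio (horizontal axis, cut at -2 and 2) for all 11321 background genes (grey), 29 small subunit genes (orange) and 48 large subunit genes (blue). Both coloured curves lie left of the grey curve from a ratio of -0.64 upward.

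Summed counts, which weight members by their level, were lower too. Small subunit genes held 40919 and 31030 counts in the control and SMC1A libraries, which is 0.223% of all counts (exact 95% interval 0.221 to 0.225) and 0.184% (0.182 to 0.186). Large subunit genes held 55884 and 43874 counts, or 0.305% (0.302 to 0.307) and 0.260% (0.258 to 0.263). By library totals, to which these shares refer, the log2 ratios of the sums were -0.28 for the small and -0.23 for the large subunit. On the libraries scaled with TMM factors, as elsewhere here, they were -0.41 (-0.43 to -0.39) and -0.36 (-0.37 to -0.34). These counting intervals do not overlap, but they leave out the spread among members, with standard deviations of 0.23 and 0.25. The medians of the 2 subunits were close, at -0.36 and -0.35, and a difference between subunits was not tested. Within a library, where no scaling enters, there were 1.37 large subunit counts per small subunit count in the control library and 1.41 in the SMC1A library.

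Some counts may hold reads of another gene. The spans of 30 members overlap another background gene, 7 on the same strand and 23 on the opposite strand, and whether strand was used in counting is not stated. Without these 30 members, the medians were -0.46 for the small and -0.41 for the large subunit.

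In the small subunit, the lowest ratio belonged to MRPS26, a protein found in mitochondrial and not in bacterial ribosomes. MRPS26 (ENSG00000125901.6, chromosome 20, 3045945 to 3048254, GRCh38) had 905 counts, 51.6 CPM, in the control library and 497 counts, 28.2 CPM, in the SMC1A library. It was 1.83-fold lower, with a log2 ratio of -0.87 (interval -1.03 to -0.71). MRPS17 (chromosome 7, 55951819 to 55956501), the counterpart of a bacterial protein that binds the small ribosomal RNA, had 55.6 and 32.3 CPM and was 1.72-fold lower (-0.78, -0.93 to -0.63). On the same strand its annotated span overlaps NIPSNAP2, which had a ratio of -0.16. MRPS23, one of those whose promoter is printed above, had 107.8 and 65.9 CPM (-0.71, -0.82 to -0.60). MRPS30 had 63.4 and 39.6 CPM (-0.68, -0.82 to -0.54). MRPS22, with 1351 and 859 counts, had a ratio of -0.66 (-0.79 to -0.54). MRPS35 had 87.3 and 56.0 CPM (-0.64, -0.76 to -0.52). These 6 are the small subunit genes past 1.5-fold, and all but MRPS17 code for proteins without a bacterial counterpart. MRPS30 and MRPS18A carry small subunit symbols but sit in the large subunit, as their systematic names in RefSeq, mL65 and mL66, show.

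The high end of the small subunit was formed by MRPS14, MRPS11, MRPS5, MRPS36 and MRPS6. MRPS14 (ENSG00000120333.4, chromosome 1, 175010789 to 175023425), of a family shared by all ribosomes, was the one small subunit gene with a ratio above 0. It had 596 counts, 34.0 CPM, in the control library and 693 counts, 39.3 CPM, in the SMC1A library (0.21, 0.05 to 0.37). The annotated span of MRPS14 overlaps that of CACYBP on the opposite strand over 927 bases, and CACYBP had a ratio of -0.33. MRPS11, with 639 and 601 counts (-0.10, -0.26 to 0.07), and MRPS36, with 225 and 203 counts (-0.16, -0.44 to 0.12), had intervals that held 0. MRPS36, the least counted member, is named KGD4 in RefSeq and belongs to the α-ketoglutarate dehydrogenase complex. MRPS5, at 100.5 and 91.6 CPM, had a ratio of -0.13 (-0.23 to -0.04) and MRPS6, at 76.9 and 68.0 CPM, of -0.18 (-0.29 to -0.07).

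The remaining small subunit genes lay between these ends. MRPS12, whose protein forms part of the decoding centre, had 59.5 and 41.3 CPM (-0.53, -0.67 to -0.39). MRPS2, MRPS34, MRPS9 and MRPS24 were close to it, with ratios of -0.54, -0.54, -0.52 and -0.51. MRPS21, MRPS15 and MRPS27 had ratios of -0.48, -0.45 and -0.40. MRPS16, MRPS28, MRPS25 and MRPS33 had ratios from -0.36 to -0.31. MRPS31, MRPS7 and MRPS10 stood at -0.26, -0.23 and -0.19. All of these intervals lay below 0, that of MRPS31 most narrowly (upper bound -0.03).

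MRPS18A, MRPS18B and MRPS18C are paralogs of 1 bacterial protein, and each occupies its own place in the mitochondrial ribosome. MRPS18A had 56.7 and 46.5 CPM (-0.28, -0.42 to -0.15), MRPS18B 138.8 and 108.0 CPM (-0.36, -0.45 to -0.28) and MRPS18C 42.1 and 32.7 CPM (-0.36, -0.52 to -0.20). The 3 intervals overlap, so no difference among the paralogs was detectable at this depth, although MRPS18B had more than 3 times the counts of MRPS18C.

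In the large subunit, 3 conserved proteins of the core led. MRPL2 (ENSG00000112651.12, chromosome 6, 43054029 to 43059806), the counterpart of a bacterial protein near the site of peptide bond formation, had 1400 counts, 79.8 CPM, and 809 counts, 45.9 CPM. It was 1.74-fold lower, with a ratio of -0.80 (-0.93 to -0.67). MRPL3 (chromosome 3, 131462212 to 131502983) had 147.2 and 90.7 CPM (-0.70, -0.79 to -0.61), and MRPL4 had 108.8 and 69.2 CPM (-0.65, -0.76 to -0.55). MRPL12, which forms the mobile stalk that recruits translation factors, had 107.3 and 68.7 CPM (-0.64, -0.75 to -0.54). MRPL55 had 30.5 and 19.6 CPM (-0.64, -0.84 to -0.45), MRPL39 53.6 and 34.7 CPM (-0.63, -0.78 to -0.48) and MRPL36 37.3 and 24.8 CPM (-0.59, -0.77 to -0.41). They complete the 7 large subunit genes past 1.5-fold. The whole counting interval was past 1.5-fold lower for 5 members: MRPS26, MRPS17, MRPS23, MRPL2 and MRPL3. This is 6.49% of the members, against 4.75% of the background.

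At the other end, MRPL53 and MRPL23 were higher with the SMC1A guide. MRPL53 (ENSG00000204822.7, chromosome 2, 74471958 to 74473322) had 252 counts, 14.4 CPM, and 364 counts, 20.6 CPM, 1.44-fold more (0.52, 0.29 to 0.76). On the same strand its span overlaps CCDC142, which had 171 and 173 counts, and the division of reads between the 2 genes was not tested. MRPL23 (ENSG00000214026.11, chromosome 11, 1947278 to 1984522), whose protein lines the exit of the peptide tunnel, had 547 counts, 31.2 CPM, and 668 counts, 37.9 CPM (0.28, 0.12 to 0.45). MRPL33 had 341 and 364 counts (0.09, -0.13 to 0.30), MRPL27 870 and 875 (0.00, -0.14 to 0.14), and MRPL35 1505 and 1508 (-0.00, -0.11 to 0.10). MRPL11 (1107 and 1103 counts) and MRPL41 (670 and 648) were likewise within counting error of no difference. By library totals MRPL11, MRPL35, MRPL41, MRPL51 and MRPS11 turned from below to above 0, and the ratio of MRPL53 reached 0.65.

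**Figure D3:**
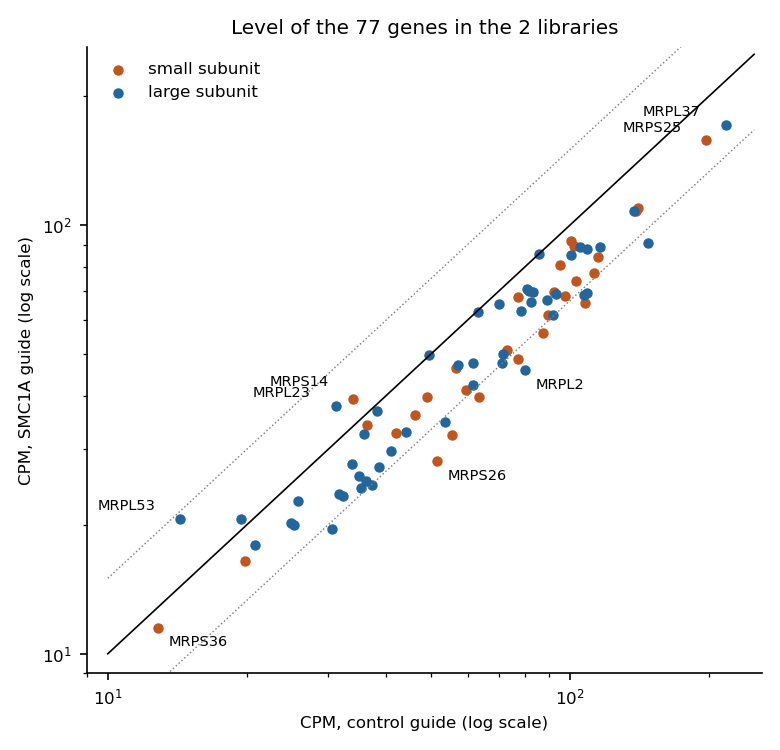
CPM of the 77 genes with the control guide (horizontal axis) and with the SMC1A guide (vertical axis), both on log scales, small subunit in orange and large subunit in blue. The solid line marks equal levels and the dotted lines 1.5-fold; most points lie just below the solid line from 12.8 CPM (MRPS36) to 217.7 CPM (MRPL37), and MRPL53, MRPL23 and MRPS14 lie above it.

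Between these ends, MRPL50 (-0.58) and MRPL19 (-0.57) were just short of 1.5-fold. MRPL34, MRPL21, MRPL24, MRPL40 and MRPL1 had ratios from -0.54 to -0.50, and MRPL17 and MRPL44 of -0.47 and -0.46. MRPL49, MRPL30, MRPL37, MRPL57, MRPL9, MRPL14, MRPL20 and MRPL43 lay from -0.39 to -0.30. MRPL13, MRPL28, MRPL42, MRPL15 and MRPL32 lay from -0.25 to -0.19, and MRPL51 was at -0.10 (-0.22 to 0.02). MRPL37 had the most counts of all members, 3819 and 3023 (-0.34, -0.41 to -0.28).

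By place in the large subunit, the genes of the stalk and its base differed most among themselves. MRPL12 was at -0.64 and MRPL10, its anchor, at -0.37 (61.7 and 47.7 CPM, -0.50 to -0.24), while MRPL54 was at -0.18 (-0.38 to 0.01), MRPL11 at -0.01 and MRPL53 at 0.52. The intervals of MRPL12, MRPL11 and MRPL53 do not overlap, and the standard deviation of the 5 ratios was 0.44. The 7 genes of the central protuberance, the crest of the large subunit, were close together with a standard deviation of 0.11: MRPL40 at -0.51, MRPL48 at -0.43, MRPL58, a peptidyl-tRNA hydrolase, at -0.42, MRPL18 at -0.41, MRPL52 and MRPL38 both at -0.28 and MRPL46 at -0.21. Of the 6 genes around the exit tunnel, MRPL24, MRPL17, MRPL45 and MRPL47 lay from -0.52 to -0.42, MRPL22 at -0.14 and MRPL23 at 0.28. MRPL45 contacts the inner membrane.

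Proteins shared with bacteria and proteins added in mitochondria were compared within each subunit. In the small subunit the 9 genes of mitochondria-specific proteins had a median of -0.54, with 4 (44.4%) at least 1.5-fold lower. The 17 genes of bacterial type had a median of -0.36, with 1 (5.88%), against 9.06% of the background. In the large subunit the order was the other way round and the step smaller. The 21 mitochondria-specific genes had a median of -0.34, with 2 (9.52%) at least 1.5-fold lower, MRPS30 among them. The 29 genes of bacterial type had a median of -0.37, with 6 (20.7%). MRPS18B is counted here as bacterial type, although RefSeq gives it the mitochondria-specific name mS40. The whole-interval count below 0 was 9 of 9 and 15 of 17 in the small subunit, and 16 of 21 and 23 of 29 in the large. In the background this share was 38.7%. With no replicate, the step between these classes was not tested.

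Levels of different genes were compared per kilobase of 1 annotated principal transcript. In the control library MRPL20 had the highest level, 150.8 CPM per kilobase, followed in the large subunit by MRPL37 with 146.8, and MRPS24 and MRPS15 led the small subunit with 137.8 and 114.2. With the SMC1A guide these 4 stood at 121.6, 115.6, 96.7 and 83.8 CPM per kilobase. The lowest level was that of MRPL42, 6.43 and 5.45 CPM per kilobase, for which the annotation gives a transcript of 15582 bases. Highest and lowest thus differed by 23.4-fold in the control library, a range that depends on this transcript length. Before division by length, MRPL42 had 100.3 CPM in the control library. The next lowest level there was that of MRPS36, 9.97 CPM per kilobase. The order of levels was similar in the 2 libraries, with Spearman's rho 0.964 and Pearson's r 0.969 over the 77 genes, which share both libraries. Across the 77 genes the ratio had only weak relations with other properties: Spearman's rho was -0.14 with the mean CPM, -0.06 with transcript length and -0.15 with the number of exons.

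The 77 genes lie on 21 chromosomes, and on each of these the median ratio of the members was below 0. Chromosomes 1, 2 and 17 hold 8 members each, with medians of -0.40, -0.24 and -0.39. All background genes of those chromosomes had medians of -0.04, -0.05 and -0.05. Over the 21 chromosomes the background medians were mostly below 0 too, from -0.11 (chromosome 10) to 0.005 (chromosome 12). Chromosomes 14, 20 and 22 hold 1 member each. MRPL16 (chromosome 11), which the rule leaves out, had 3991 and 1298 counts and a ratio of -1.63 (-1.72 to -1.54), below every member. With it added, the median of the large subunit was -0.35.

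Some of these genes start beside another gene on the opposite strand. A start of another background gene within 1000 bases was found for 26 of the 77 members. The share of all background genes with such a start was not counted. With the pair MRPL46 and MRPS11 counted once, there were 25 pairs with a protein-coding partner. They came from 24 members, with MRPS11 taken as the partner of MRPL46. MRPL32 entered with both PSMA2 and ENSG00000256646. The partners had a median ratio of -0.17, from -0.99 to 0.59, with 17 of 25 below 0, where 54.3% of the background was, while the members of these pairs had a median of -0.36. The partner's ratio was higher than the member's in 18 pairs and lower in 7. Among all background genes, 21.2% had a ratio below the members' median of -0.36, so most genes would be higher than a typical member. Whether partners differ from other genes in this was not tested. Member and partner did not follow each other closely, with Pearson's r 0.07 and Spearman's rho 0.24 over the 25 pairs, which share both libraries. MRPL2 at -0.80 starts 89 bases from KLC4, a kinesin light chain gene with 94 and 143 counts and a ratio of 0.59; it overlaps the whole span of MRPL2. MRPL43 at -0.30 starts 21 bases from TWNK, the helicase of mitochondrial DNA, with 1549 and 786 counts and a ratio of -0.99. MRPL46 and MRPS11, a gene of each subunit, start 34 bases apart and had ratios of -0.21 and -0.10. MRPS12 and SARS2, which encodes the mitochondrial seryl-tRNA synthetase, start 58 bases apart and had ratios of -0.53 and -0.33. These 4 pairs were chosen after their values were seen.

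**Figure D4:**
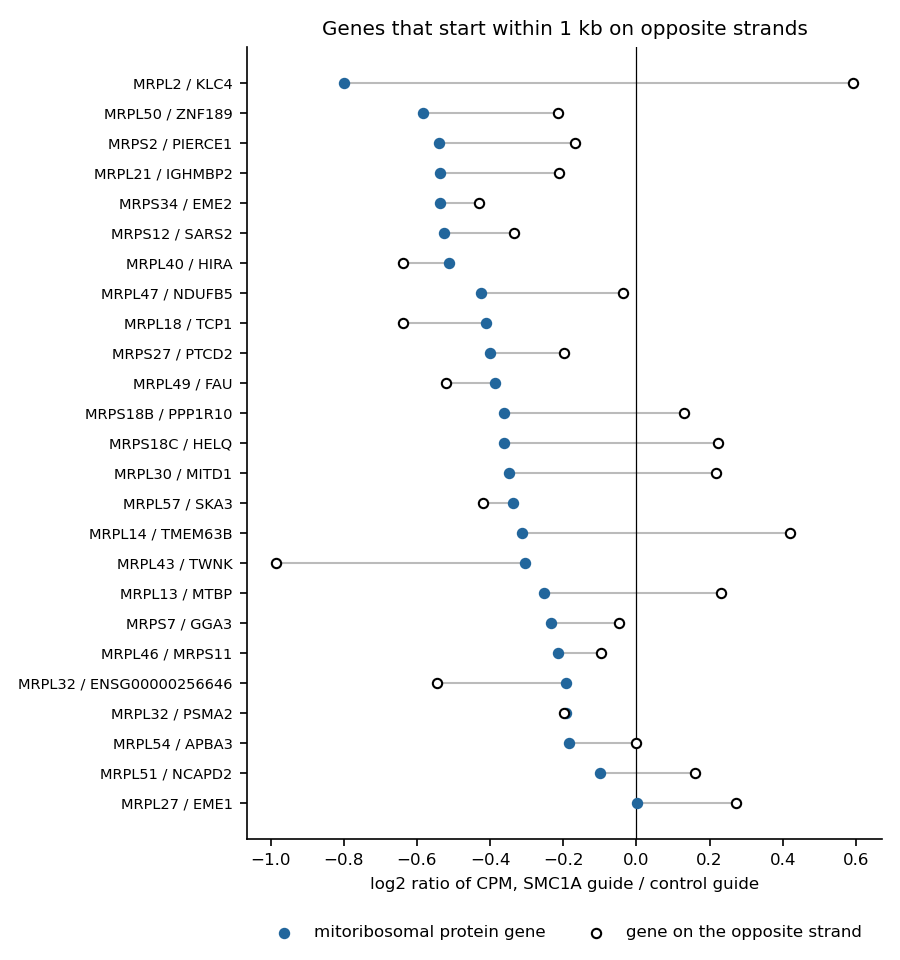
Log2 ratios (horizontal axis) of 25 pairs of a mitochondrial ribosomal protein gene (filled blue) and a protein-coding gene that starts within 1000 bases on the opposite strand (open); each row is 1 pair and the grey line joins its genes. Filled points lie from -0.80 to 0.00, open points from -0.99 to 0.59, and the open point is to the right in 18 rows.

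Genes that act with the mitochondrial ribosome mostly had ratios of similar size. Their counts past 1.5-fold read against 9.06% lower and 12.2% higher in the background. The 5 mitochondrial ribosomal proteins without an MRP symbol were all below 0, with a median of -0.45 and 0 past 1.5-fold: GADD45GIP1 at -0.52, AURKAIP1 at -0.49, PTCD3 at -0.45, DAP3 at -0.40 and CHCHD1 at -0.37. Of 27 genes for assembly of the particle and modification of its RNA, 4 (14.8%) were at least 1.5-fold lower and 0 higher, with a median of -0.39. Among them MIEF1, also a mitochondrial fission factor, was at -0.73 and MTERF3 at -0.66, and YBEY and MTG1 were at -0.09 and 0.09, both with intervals that held 0. Of 15 translation factor genes, 2 (13.3%) were at least 1.5-fold lower and 0 higher (median -0.37), namely the elongation factor genes TSFM at -0.75 and TUFM at -0.67. MTRF1L was at -0.07 and MTIF3 at 0.19. Of 22 genes for charging mitochondrial tRNA, 2 (9.09%) were at least 1.5-fold lower, the background's share, and 0 higher (median -0.32). These were MARS2 at -0.76 and NARS2 at -0.71, and AARS2 at 0.24 and VARS2 at 0.26 were the highest. Genes for transcription and RNA handling in mitochondria had the lowest median of these lists, -0.48 over 16 genes, 5 of them (31.2%) at least 1.5-fold lower and 0 higher. The tRNA-processing gene TRMT10C was at -1.11 and the transcription factor gene TFB2M at -0.88, and MTPAP and TEFM were at -0.27 and -0.18.

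RNA of the mitochondrial genome itself differed less. Its 13 mRNAs, 0 of them past 1.5-fold in either direction, had a median of -0.13, from -0.37 for MT-ND6 and -0.30 for MT-ND2 to 0.05 for MT-ND5 and 0.06 for MT-CO1. The ribosomal RNAs of the mitochondrial ribosome were both slightly higher. MT-RNR1, the small subunit RNA, had 16461 and 17867 counts (0.11, 0.08 to 0.14) and MT-RNR2, the large subunit RNA, 402100 and 456166 counts (0.17, 0.17 to 0.18). Both libraries were made from poly(A)-enriched RNA, which bears on how ribosomal RNA is captured.

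**Figure D5:**
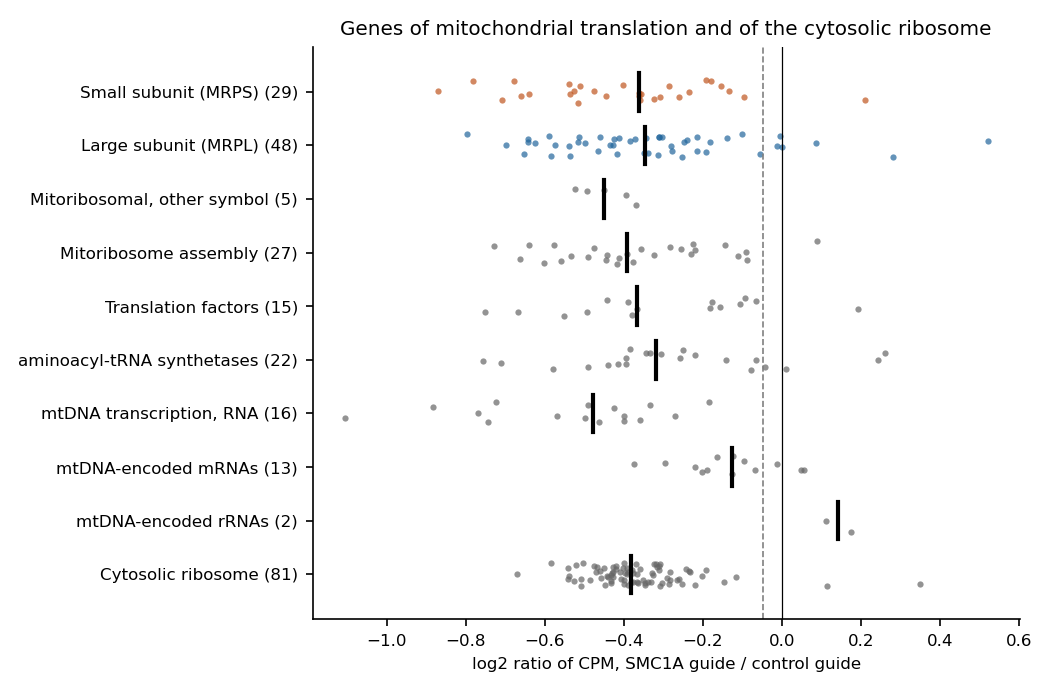
Log2 ratios (horizontal axis) of the genes in 10 lists, 1 point per gene with at least 100 counts and the number of genes in brackets; black bars are medians, the solid line is 0 and the dashed line the background median of -0.05. The nuclear-encoded lists have medians from -0.48 to -0.32, the mtDNA-encoded mRNAs -0.13 and the 2 mtDNA-encoded rRNAs 0.14.

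Cytosolic ribosomal protein genes, which build the other ribosome of the cell, had a median of -0.38 over 81 genes, close to those of both mitochondrial subunits. Their spread was narrower, with a standard deviation of 0.14 against 0.25. At least 1.5-fold lower was 1 of them (1.23%, against 9.06% of the background), RPS29 at -0.67, followed by RPL26 at -0.58, and 0 were higher, with RPL39L at 0.11 and RPS27L at 0.35 at the other end. Of the 10 listed regulators of mitochondrial biogenesis, 9 had 100 counts, and 5 of these (55.6%) were at least 1.5-fold lower and 0 higher, against 9.06% and 12.2% of the background. MYC, a transcription factor known to drive ribosome and mitochondrial genes, had 610.9 and 220.3 CPM (-1.47, -1.53 to -1.42), and the nuclear receptor gene ESRRA 65.2 and 38.3 CPM (-0.77). NRF1, the factor whose core motif was searched above, was at -0.24 (-0.43 to -0.06), and GABPA, the ETS subunit of GABP, at 0.21 (0.09 to 0.32). PPARGC1A had 0 counts in the control library, which allows up to 0.171 CPM, and 2 in the SMC1A library. Whether any of these regulators bears on the ratios of the 77 genes was not tested.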

How the data were processed

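RNA was sequenced in 2 libraries, 1 per guide, in paired reads of 100 bases from a poly(A), strand-preserving kit, per the labels' protocols. The values the authors deposited are estimated counts by gene, whole numbers not scaled between libraries. The tools DESeq2 1.42.1, Salmon 1.10.1 and STAR 2.7.10a and the build hg38 (GRCh38) are named per the submitters' processing notes, while their roles were not given in the sources used here, nor is the annotation. Salmon divides reads among overlapping or near-identical transcripts, so counts of such genes depend on that division, and whether strand was used in counting is not stated.

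Symbols came from a table of gene identifiers. Gene types, spans and transcript lengths came from GENCODE release 29 (GRCh38), which held 97.9% of the background genes. Libraries were scaled with TMM factors (edgeR 4.0.16, R 4.3.3), and log2 ratios used edgeR's formula with a prior count of 1. Exact Clopper-Pearson 95% intervals cover counting error only, since without molecular identifiers reads may repeat a molecule. Up to 3 counts may underlie a 0, which is 0.171 and 0.170 CPM in the 2 libraries. Size rules of 1.5-fold and 2-fold were applied to genes with at least 100 counts, since 1 library per guide permits no test. Calculations were made in Python 3.11.15 with pandas 2.3.3, scipy 1.17.1 and numpy 2.4.6, and tested on simulated data. Members named with values were the 5 highest and 5 lowest of each subunit, the 2 highest levels per kilobase, members past 1.5-fold, the MRPS18 paralogs and the stalk genes; the other members are covered in groups, and of other lists the 2 highest and 2 lowest. One listed erythroid marker is not reported here. The members, lists and rules were chosen with earlier results of these data known. Alternatives were scaling by library totals, by upper quartiles or by DESeq2 1.42.0 size factors, prior counts of 0.25 and 5, other count filters, subunits by structure and removal of the expression trend.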

Additional observations from a re-analysis of the deposited data

How the results depend on the processing

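No paired analysis was possible because each guide had 1 library. The medians of both subunits were below 0 under every alternative run. They were -0.23 and -0.22 for the small and large subunit by library totals, which also gave summed ratios of -0.28 and -0.23, 3 members at least 1.5-fold lower and 1 higher, and 640 of all genes at least 1.5-fold lower, a larger share (5.65%) than that of the members (3.90%); this scaling uses totals alone and moves all ratios by 0.13. With the expression trend removed the medians were -0.30 and -0.27, with 6 members past 1.5-fold lower. The ratio of summed counts in place of the median gave -0.41 for the small subunit. Leaving out the 30 members overlapped by another background gene, chosen after seeing the data, gave -0.46 and -0.41; the cause was not tested. Demanding the whole interval past 1.5-fold left 5 members (6.49%) lower. Among all genes it left 538 (4.75%) lower and 785 (6.93%) higher (143 and 343 at 2-fold). Among all genes, a filter of 20 counts gave 2544 at least 1.5-fold higher, and 518 lower and 1361 higher at 2-fold. A filter of 500 counts gave 616 higher at 1.5-fold, and 140 lower and 199 higher at 2-fold. With no filter 4073 were lower and 6664 higher at 1.5-fold, and 2714 and 3800 at 2-fold. The share of higher genes among all past 1.5-fold was 57.3%, against 74.5% by library totals, and among those past 2-fold 68.8% against 79.7%; with at least 500 counts these shares were 46.5% and 58.7%, and with no filter the share past 2-fold was 58.3%. Of 385 values of single members under 5 other scalings and prior counts, 345 stayed within the member's own counting interval and 40 did not, all 40 under library totals; no member with an interval clear of 0 changed sign. Depth limits members with few counts most: the interval of MRPS36 runs from -0.44 to 0.12.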

Other observations

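The table has 81 rows named as pseudogenes of mitochondrial ribosomal protein genes. Of these, 5 had any count and 2 had at least 10, and together they held 106 counts in the control library and 111 in the SMC1A library. MRPS31P5 had 57 and 50 counts and MRPL45P2 47 and 54, where the genes they resemble had 347 and 291 (MRPS31) and 1639 and 1218 (MRPL45). Without MRPS31 and MRPL45, the median log2 ratios were -0.38 for the small and -0.34 for the large subunit.

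Noncoding transcripts beside members mostly had low counts, and their ratios were not always close to the member's. MRPL20-AS1 had 885 and 721 counts and a log2 ratio of -0.30 (95% counting interval -0.45 to -0.16), and MRPL20, which it overlaps on the opposite strand, -0.31. MRPL20-DT had 108 and 111 counts (0.03, -0.36 to 0.43). The antisense gene ENSG00000262049, which starts 57 bases from MRPL12, had 62 and 60 counts (-0.05, -0.59 to 0.48), where MRPL12 was at -0.64. MRPL23-AS1 had 14 and 27 counts, too few for the background filter, beside a ratio of 0.28 for MRPL23.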
